A study of Homo sapiens with 6 samples.

Results

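ATP8B1 and its relatives are phospholipid flippases, membrane pumps that move lipids from the outer to the inner leaflet of a bilayer. They were followed here in NSCLC cell lines with and without siRNA against MALAT1, a long nuclear RNA of nuclear speckles. The 9 genes, of 46427 in the deposited table, were found by gene symbol: ATP8B1, ATP8B2, ATP8A1, ATP10D, ATP11A, ATP11B, ATP9A, ATP9B, and TMEM30A. ATP8B1 was chosen because its read count was higher with si-MALAT1 in each cell line, so its change is described below without a test. All 9 had reads in each of the 6 libraries and all passed the filter on low counts. That filter left 19122 genes in the test of si-MALAT1 and 21771 in the test of cell lines.

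RNA-seq was performed on H460, H1299, and A549, established NSCLC lines described in the labels as tumor cells. Each cell line gave 1 control library, labelled as non-treated, and 1 library of cells given si-MALAT1. The methods describe both untreated negative controls and si-Control cells, and it was not stated which of them was sequenced. The siRNA was delivered by transient transfection. The 3 cell lines served as the replicates in the test of si-MALAT1. In the test of cell lines, the control and si-MALAT1 libraries of a line stood in for its replicates. The spread there is how unevenly the lines changed with si-MALAT1, as no line has a replicate of either condition. All p-values thus measure the spread between these samples only.

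A flippase of this family, called a P4-ATPase, holds a catalytic subunit that is phosphorylated on an aspartate while it carries a lipid across. Most of them, including the ATP8, ATP10, and ATP11 groups, leave the endoplasmic reticulum only together with a small subunit, most often TMEM30A (CDC50A). ATP9A and ATP9B work in endosomes and the Golgi without it. By keeping phosphatidylserine inside the cell, flippases oppose the scramblases, whose activity exposes this lipid on dying cells. ATP8B1 sits at the apical membrane of epithelial cells, and its loss causes an inherited cholestasis. In mice, a mutant Atp8b1 has been tied to more severe bacterial pneumonia.

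The catalytic centre is a site that TMEM30A lacks, and its coding sequence in 7 of the 8 pumps is printed here to show how far these genes differ there. The 15 capital bases encode the P-type ATPase phosphorylation signature, beginning with the codon of the phosphorylated aspartate, and the 15 lower-case bases flank it. They were read from the canonical GENCODE transcripts on GRCh38, 5′ to 3′ on the coding strand.
ATP8B1: ttctctGATAAGACGGGGACActcacacaa
ATP8A1: ttttctGACAAAACTGGTACTctgacatgc
ATP10D: ttttccGATAAGACAGGAACCctcactgag
ATP11A: ttcacaGACAAGACCGGCACCctcacggaa
ATP11B: tttacaGATAAAACTGGTACActgacagaa
ATP9A: ctcacaGACAAGACAGGCACTcttacccag
ATP9B: ttgacaGACAAAACAGGAACCctcacccag

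The ATP8B1 window lies in exon 13 of 28 at chr18:57688345-57688374 on the minus strand, and its aspartate is codon 454. Those of ATP11A (chr13:112831387-112831416, plus) and ATP11B (chr3:182865468-182865497, plus) also lie in exon 13 of their transcripts. The ATP8A1 window is in exon 14 (chr4:42574666-42574695, minus) and that of ATP10D in exon 9 (chr4:47536848-47536877, plus). The windows of ATP9A and ATP9B span an exon boundary, between exons 12 and 13 and between exons 13 and 14. These 7 genes used 7 distinct codings of the same signature, and 10 of the 15 bases were identical in all of them. Those 10 are the bases that the genetic code fixes for this signature, so their identity follows from choosing windows by it. Against ATP8B1, the whole window of 30 bases matched at 20 positions in ATP8A1, ATP9A, and ATP9B, and at 22 in ATP10D, ATP11A, and ATP11B. These matches include the 10 fixed bases. The signature was found in 43 of 20046 canonical coding transcripts, or 0.215%, and it was not found in that of TMEM30A.

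In the deposited GRCh38 annotation, ATP8B1 (Gene ID 5205) spans chr18:57646426-57803822 on the minus strand. ATP9B lies farther along the same chromosome (chr18:79069285-79378391), while ATP8A1 (chr4:42408373-42657105) and ATP10D (chr4:47485261-47593486) share chromosome 4. The others are ATP8B2 (chr1:154325525-154351304), ATP9A (chr20:51596514-51768390), ATP11A (chr13:112690034-112887168), ATP11B (chr3:182793504-182923010), and TMEM30A (chr6:75252924-75284792).

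The libraries held 42506818 to 68515992 reads assigned to genes, with both A549 libraries below the others. Reads of MALAT1 went from 231045 in the control to 43858 with si-MALAT1 for H460, from 407551 to 47935 for H1299, and from 93747 to 14447 for A549. Its log2 fold changes were -2.32, -2.96, and -2.84, and it was the only gene of 19122 to pass edgeR's quasi-likelihood test (adjusted p = 0.0381). It did not pass without the H1299 pair (adjusted p = 0.125) or without the A549 pair (0.275). The epithelial keratins KRT8 and KRT18 had at least 11408 reads in every library. EPCAM and CDH1, which also mark epithelium, had at most 73 reads in H460 and H1299. Reads of KRT19 were abundant in H460 only, at 44567 and 33570 against at most 121 elsewhere.

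Among 6 markers of other cell types, the leukocyte genes PTPRC and CD3E and the endothelial CDH5 had 0 reads in all libraries. PECAM1 had at most 8 reads and COL1A2 at most 5. COL1A1, a fibroblast collagen, had 175, 38, and 267 reads in the H460, H1299, and A549 controls and 472, 144, and 469 with si-MALAT1. The summed level of the 6 markers was 0.129 to 1.29 TPM in the controls and 0.522 to 2.05 TPM with si-MALAT1, and the part of COL1A1-expressing cells in the results below was not tested. EPCAM was also higher in each line, at 30 and 73, 23 and 43, and 196 and 485 reads, while the summed level of the 5 epithelial markers was lower, at 1222 and 878 TPM for H460, 480 and 458 for H1299, and 4728 and 2078 for A549. In these bulk samples, fewer cells of a kind and less RNA per cell cannot be told apart.

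ATP8B1 separated the 3 cell lines more widely than any other member. It had 31 reads in the H460 control and 88 in the H460 si-MALAT1 library. H1299 had 1216 and 2733 reads, and A549 had 3403 and 6837. Per length, its level was 0.0789 and 0.221 TPM in H460, 3.41 and 8.77 TPM in H1299, and 15.8 and 28.3 TPM in A549. The 3 lines did not overlap: the higher H460 library lay far below the lower H1299 library, and the higher H1299 library below the lower A549 library. In counts scaled for depth, the lines did not overlap for ATP9B, ATP10D, and ATP11B either. The share of all genes without overlap was not computed, so the lack of overlap cannot be read as a trait of these genes. With both libraries of a line as its replicates and the treatment as a block, ATP8B1 was higher in A549 than in H460 by 6.87 on the log2 scale (edgeR, adjusted p = 4.35e-05). The difference was 4.86 between H1299 and H460 (4.12e-05) and 2.01 between A549 and H1299 (0.000498). When each of the 6 libraries was left out in turn, the log2 differences ranged from 6.64 to 7.17, 4.66 to 5.16, and 1.76 to 2.28. It was the only member to pass in all 3 contrasts, as did 13% of all genes tested. Each of the 9 passed in at least 1 contrast, whereas 32.7% of genes passed in none. The order A549, H1299, H460 held with every alternative.

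**Figure D1:**
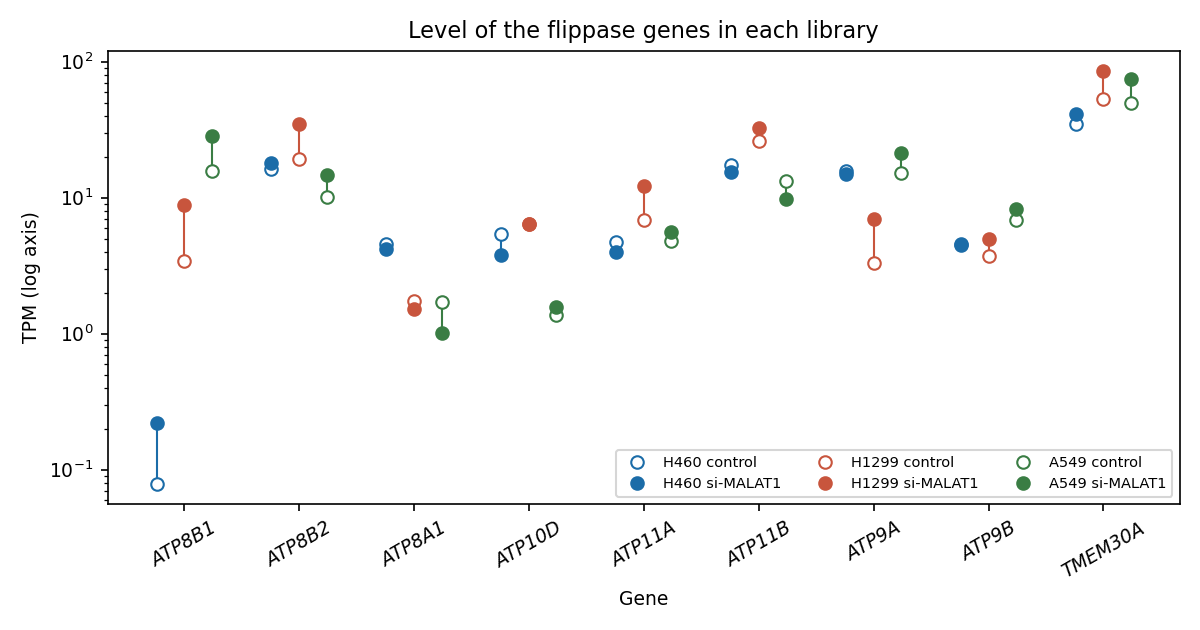
TPM of the 9 flippase genes on a log axis, with an open point for the control and a filled point for the si-MALAT1 library of each cell line, joined by a line. ATP8B1 runs from 0.0789 TPM in the H460 control to 28.3 TPM in A549 with si-MALAT1, while TMEM30A is the highest gene in every library, at 34.8 to 84.8 TPM.

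The other members kept within a narrower range, and most were lowest in A549 or H1299 rather than in H460. Between H1299 and H460, 5 of the 9 members passed, against 50.7% of all genes. In the contrast of A549 with H460 it was also 5, against 35.3%, and between A549 and H1299 it was 7, against 47.2%. The members thus passed at 17 of 27 contrasts, of which 11 passed under every one of the 10 alternatives for that contrast.

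ATP8A1, which moves phosphatidylserine and phosphatidylethanolamine, was highest in H460, where ATP8B1 was lowest. The H460 libraries held 2179 and 2094 of its reads (control, then si-MALAT1), the H1299 libraries 821 and 630, and the A549 libraries 495 and 327. It was lower in H1299 than in H460 by a log2 difference of -1.79 (adjusted p = 0.0011) and lower in A549 than in H460 by -2.01 (0.00128). A549 and H1299 did not differ beyond their spread (-0.22, adjusted p = 0.44). Scaled for depth, its counts were 651 and 547 in H1299 and 652 and 389 in A549, so these lines overlapped. ATP10D, a pump of glucosylceramide, had 1869 and 1445 reads in H460 and 2339 and 2087 in H1299, but 310 and 369 in A549. A549 was lower than H460 by -1.89 (0.000574) and lower than H1299 by -2.10 (0.000294), whereas H1299 and H460 did not differ beyond their spread (0.21, 0.299).

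ATP9A was set apart in H1299. There it had 1496 and 2752 reads, against 7153 and 7108 in H460 and 4144 and 6469 in A549. H1299 was lower than H460 by -2.02 (adjusted p = 0.00108) and A549 higher than H1299 by 1.93 (0.00145), while A549 and H460 could not be ordered (-0.09, 0.816). The related ATP9B had 1021 and 1195 reads for H1299, 1086 and 1425 for A549, and 1191 and 1244 for H460. Scaled for depth these were 809 and 1037, 1430 and 1697, and 1101 and 1217, so the lines did not overlap. Only its contrast of A549 with H1299 passed (0.77, adjusted p = 0.0064), and it did not pass without the A549 control (0.061) or the A549 si-MALAT1 library (0.0677).

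ATP8B2, a phosphatidylcholine flippase of the plasma membrane, had 2117 and 3393 reads in A549, below the 5574 and 6449 of H460 and the 6564 and 10423 of H1299. A549 was lower than H1299 by -1.03 (adjusted p = 0.00386) and lower than H460 by -0.78 (0.0144). The latter did not pass without the H460 control (0.0843) or without either A549 library (0.135 and 0.119). ATP11B, found in endosomes, was again lowest in A549, with 3626 and 3029 reads against 7850 and 7190 for H460 and 11877 and 12673 for H1299. A549 was lower than H1299 by -1.28 (0.00261) and lower than H460 by -0.78 (0.0204). The contrast with H460 did not pass when either H460 library (0.0649 and 0.065) or either A549 library (0.0515 and 0.212) was left out.

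ATP11A, a plasma membrane pump of phosphatidylserine, had the most reads in H1299, 3353 and 5170, against 2379 and 2070 for H460 and 1446 and 1855 for A549. Scaled for depth, H460 had 2200 and 2025 and A549 had 1904 and 2209. These 2 lines did not differ beyond their spread (-0.06, adjusted p = 0.879). H1299 was higher than H460 by 0.70 (adjusted p = 0.0406), and A549 was lower than H1299 by -0.76 (0.0327). Neither held throughout: the largest adjusted p with a library left out was 0.234, without the H460 si-MALAT1 library, for the former and 0.181, without the A549 si-MALAT1 library, for the latter. The subunit TMEM30A had 13602 and 18833 reads in H1299, 8955 and 10915 in H460, and 7679 and 12826 in A549 (scaled for depth, the A549 libraries lay near those of H1299). H1299 was higher than H460 by 0.48 (0.0298), but this passed with only 1 of the 6 libraries left out, with adjusted p from 0.0433 to 0.2. A549 and H1299 did not differ beyond their spread (-0.09, 0.645).

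The makeup of the catalytic transcripts differed between the lines. Of the summed TPM of the 8 catalytic members, ATP8B1 made up 0.115% in the H460 control and 0.339% with si-MALAT1. Its share was 4.82% and 8.13% in the H1299 libraries, and 22.8% and 31.4% in those of A549, where it was the catalytic member with the highest level in both libraries. ATP11B led in the H460 control with 25.5% and in the H1299 control with 37%. ATP8B2 led in the si-MALAT1 libraries of both, at 27.6% and 32.2%. The summed level of these 8 genes was close in the 3 controls, at 68.4 TPM for H460, 70.8 for H1299, and 69.1 for A549. With si-MALAT1 it was 65.1, 108, and 90.4 TPM. With 1 library per line and condition, these shares have no replicate check.

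**Figure D2:**
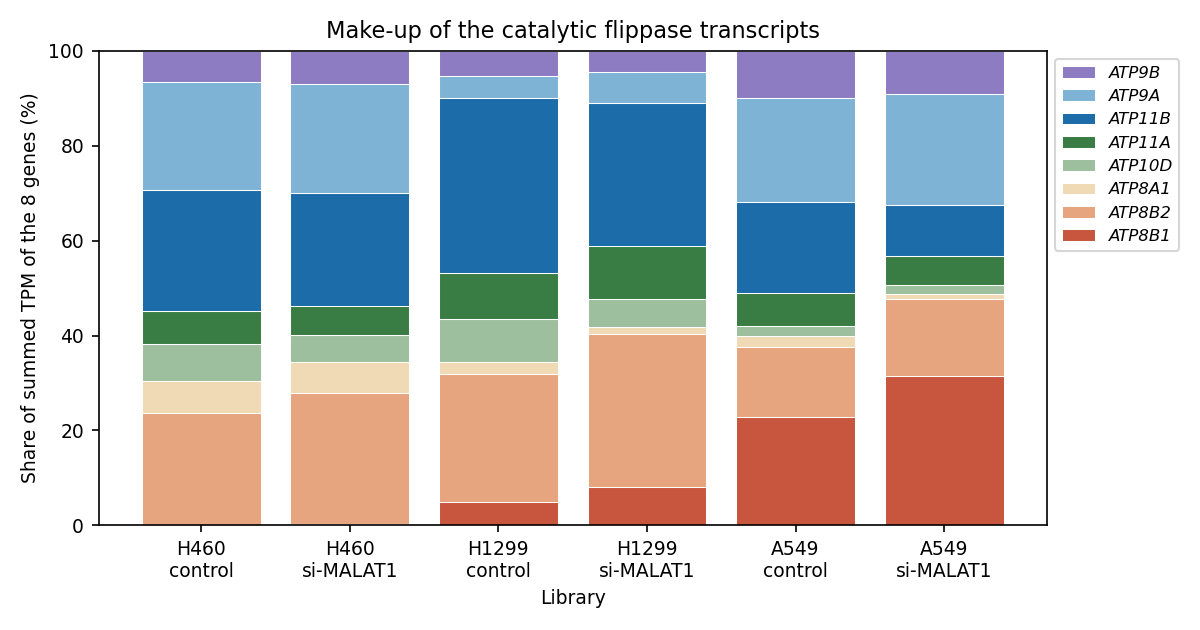
Share of each catalytic member in the summed TPM of the 8 genes, as stacked bars that fill the axis for each of the 6 libraries. The ATP8B1 part at the base grows from 0.115% in the H460 control to 31.4% in A549 with si-MALAT1, and the ATP11B part is widest in the H1299 control, at 37%.

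Of the summed TPM of all 14 P4-ATPase genes, a sum chosen after seeing the data, the shares of ATP8B1 were 0.0679% and 0.197% for H460, 4.36% and 7.59% for H1299, and 15.4% and 24% for A549. Unlike that of the 8 members, this sum was not close in the controls, at 116 TPM for H460, 78.2 for H1299, and 102 for A549. With si-MALAT1 it was 112, 115, and 118 TPM.

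With si-MALAT1, the level of ATP8B1 was higher in each line, which is how it was chosen. The fold change from RLE-scaled counts plus 1 was 2.94 in H460, 2.46 in H1299, and 1.82 in A549. On the log2 scale these were 1.55 (exact 95% interval 0.98 to 2.23), 1.30 (1.20 to 1.40), and 0.86 (0.80 to 0.92). These intervals treat the reads of ATP8B1 in a line as a binomial draw from its library pair, so they cover counting error only. In H460 the change rested on 31 and 88 reads. On the log2(TPM + 1) scale it was 0.18 there, because the added 1 exceeds both levels, against 1.15 in H1299 and 0.81 in A549.

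**Figure D3:**
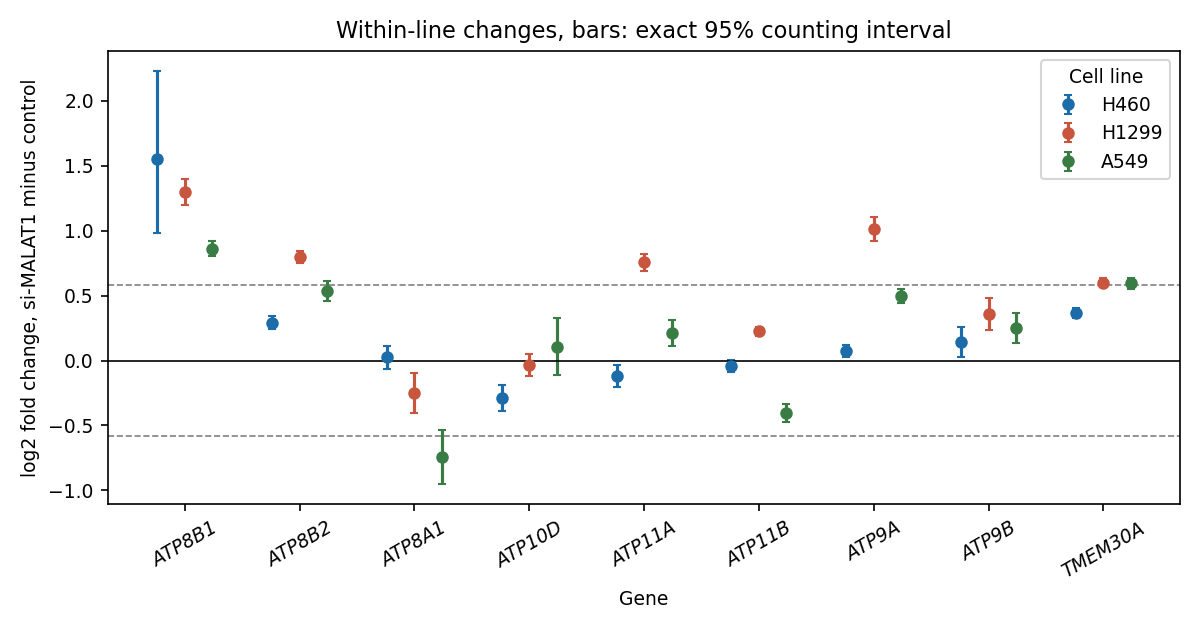
Within-line log2 fold change of each member, si-MALAT1 minus control, with exact 95% counting intervals as bars and dashed lines at a fold change of 1.5 in either direction. ATP8B1 lies above the upper dashed line in all 3 lines (1.55, 1.30, and 0.86), while ATP8A1 lies below the lower one in A549 (-0.74).

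The 8 other members were read from the same fit, and none passed edgeR's quasi-likelihood test at an adjusted p under 0.05, as with 0% of all genes for higher levels and 0.00523% for lower ones. At an unadjusted p under 0.05, 3 of the 8 were higher (ATP8B2, ATP9A, and TMEM30A) and 0 were lower, against 7.38% and 7.59% of all genes. DESeq2's Wald test passed 2 of the 8 as higher (ATP8B2 and TMEM30A), against 4.57% of the genes it tested, and 0 as lower, against 4.76%.

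In direction, 6 of the 9 members had higher scaled counts with si-MALAT1 in H460 (51.9% of all genes), 7 in H1299 (51.9%), and 7 in A549 (50.7%). The count was higher in all 3 lines for 5 members (ATP8B1, ATP8B2, ATP9A, ATP9B, and TMEM30A), as did 21.4% of the 17834 genes with reads in every library. On the log2(TPM + 1) scale it was 4, since ATP9A was lower in H460 (-0.06). No member was lower in all 3 lines, against 18.8% of all genes. A fold change of at least 1.5 upward was seen in 1 member in H460 (9.5% of all genes), in 5 in H1299 (11.7%), and in 2 in A549 (11.5%). Downward it was seen in 0 in H460 (10.3%), 0 in H1299 (11.4%), and 1, ATP8A1, in A549 (11.4%). The median log2 fold change of the 9 was 0.07 in H460, 0.60 in H1299, and 0.25 in A549, where the medians of all genes were 0.02, 0.02, and 0.01. Since ATP8B1 was selected on this contrast, it is counted in these numbers but supports nothing about them. Without it the medians of the members were 0.05, 0.48, and 0.23.

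Among the pumps that need TMEM30A, ATP8B2 was also higher in each line. The log2 fold change was smallest in H460 (0.29), then A549 (0.54) and H1299 (0.80), with a mean of 0.54 ± 0.25 (SD, n = 3 lines). The edgeR adjusted p was 0.172 and that of DESeq2 0.00858. ATP11A went in opposite directions beyond counting error, at -0.12 (-0.20 to -0.03) in H460 against 0.76 in H1299 and 0.21 in A549, with a mean of 0.28 ± 0.44 (adjusted p = 0.549). ATP11B did likewise, at 0.22 in H1299 and -0.40 in A549, with -0.05 in H460, and its mean was -0.08 ± 0.32 (0.826). Neither gene reached a fold change of 1.5 in opposite directions, a pattern of 6.15% of all genes. The share of all genes split beyond counting error was not computed. Differences between the lines in the response were not tested, as each line has a single pair.

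ATP8A1 changed by -0.74 on the log2 scale in A549 and by -0.25 in H1299, against 0.02 (-0.06 to 0.11) for H460, with a mean of -0.32 ± 0.39 (edgeR adjusted p = 0.435). The small H460 value turned to -0.01 with TMM scaling. ATP10D had -0.29 in H460, with values whose intervals included 0 in H1299 (-0.03) and A549 (0.11), and its mean was -0.07 ± 0.20 (0.783).

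The pumps that work without TMEM30A were higher in each line on the scale of counts. ATP9A, which acts in recycling endosomes, was barely higher in H460 (log2 0.07), against 1.01 for H1299 and 0.50 for A549 (0.53 ± 0.47, edgeR adjusted p = 0.294). Its largest change was in H1299, the line in which its level was lowest. ATP9B, a Golgi pump, had 0.14, 0.36, and 0.25 in the same order (0.25 ± 0.11, 0.417).

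TMEM30A was higher in each line, least in H460. On the log2 scale it was higher by 0.37 (0.33 to 0.41) for H460, by 0.60 (0.57 to 0.63) for H1299, and by 0.60 (0.55 to 0.64) for A549, with a mean of 0.52 ± 0.13. Its edgeR adjusted p was 0.143, the smallest of the 8 tested members, and that of DESeq2 was 0.000555. The subunit was also higher relative to the 6 members that depend on it. The summed TPM of the 6 dependent members over that of TMEM30A was 1.39 in the H460 control and 1.12 with si-MALAT1. For H1299 the ratio was 1.19 and 1.13, and for A549 it was 0.947 and 0.818, so it was lower with si-MALAT1 in 3 of 3 lines. Adding the P4-ATPase genes outside the members, a sum chosen after seeing the data, gave higher ratios. They were 2.77 and 2.27 for H460, 1.33 and 1.22 for H1299, and 1.61 and 1.19 for A549. ATP8B1, chosen on this contrast, is in both sums. Both ratios compare transcripts per length and say nothing of the proteins.

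ATP8B1 shares exon bases with other genes on the opposite strand. The lncRNA LOC100505549 overlaps 112 of them, 1.68% of the exon bases of ATP8B1, and LOC105372141 overlaps 5. LOC100505549 had 95 and 141 reads in H460, more than ATP8B1 in both libraries, against 204 and 291 for H1299 and 194 and 195 for A549. It changed by 0.65, 0.64, and -0.14 on the log2 scale, so it was not higher in A549, where ATP8B1 was. LOC105372141 went the other way, with 43 and 13, 164 and 104, and 55 and 27 reads. The library kit keeps the strand, but it was not stated whether counting used it, so reads of ATP8B1 and of these antisense genes in the shared bases cannot be told apart. No other member shared exon bases with a gene on either strand.

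The protein-coding genes around ATP8B1 changed in both directions. ATP8B1 was chosen for being higher in each line, so its larger change beside these unselected genes is no result. Within 1 Mb lay 9 of them, 6 with reads in each library. WDR7 (0.15, 0.58, and 0.64 in H460, H1299, and A549) and ONECUT2 (0.46, 0.55, and 0.46), a transcription factor gene, were higher in each line, as were 21.4% of all genes. None of the 6 reached a fold change of 1.5 upward in all 3 lines, against 1.19% of all genes. FECH, which makes the last step of haem synthesis, was lower in each line, at -0.23, -0.99, and -0.79. So was the asparaginyl-tRNA synthetase gene NARS1, at -0.09, -0.68, and -0.40, and 18.8% of all genes were lower in each line. In edgeR 0 of the 6 passed. The same 4 genes had an unadjusted p under 0.05, against 7.38% of all genes as higher and 7.59% as lower. DESeq2 passed only FECH (adjusted p = 0.00998), against 4.57% of the genes it tested as higher and 4.76% as lower. NEDD4L and MALT1 changed direction between lines. Between the lines, 4 of the 6 were lower and 0 higher in H1299 than in H460, and 3 were higher and 0 lower in A549 than in H460, where 50.7% and 35.3% of all genes passed in either direction.

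**Figure D4:**
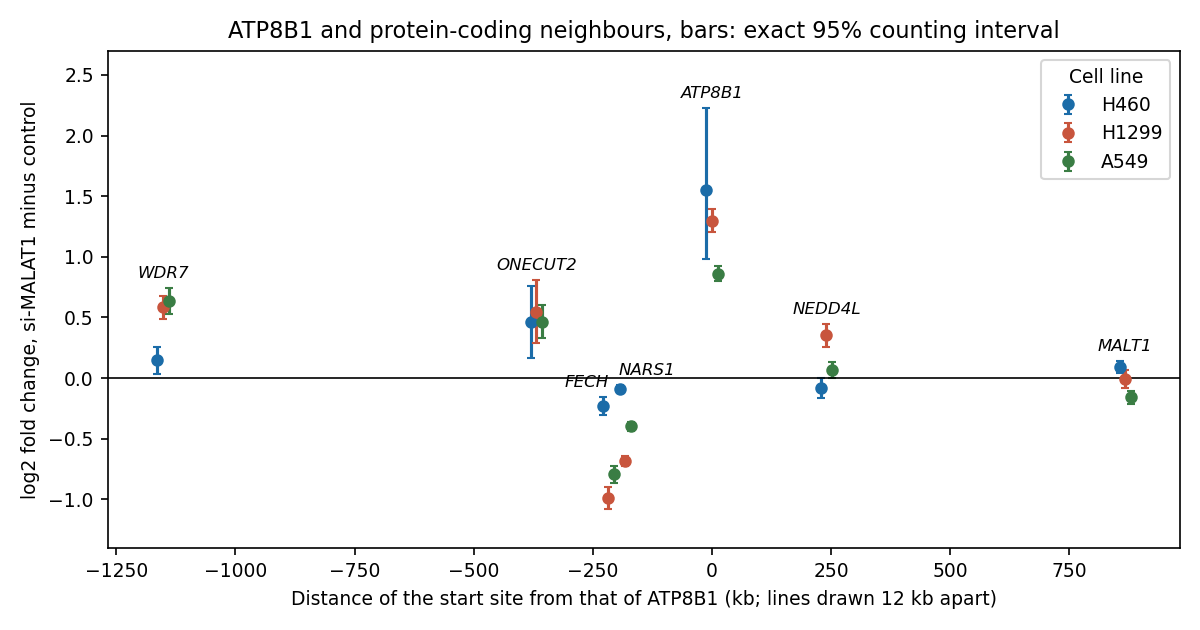
Within-line log2 fold change, si-MALAT1 minus control, of ATP8B1 and the 6 protein-coding neighbours with reads in each library, against the distance of their start sites in kb, with exact 95% counting intervals as bars. ATP8B1 (0.86 to 1.55) was chosen for being higher in each line and is drawn for reference only. FECH and NARS1, between ATP8B1 and ONECUT2, lie below 0 in all 3 lines.

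The genes whose profiles over the 6 libraries were most like that of ATP8B1 were found by Euclidean distance between gene-centred log2 values, among 15902 genes with a mean of at least 50 reads. They were C3orf80 (distance 1.00), DPYSL5 (1.10), LOC100130111 (1.37), PCDHA4 (1.40), which shares its last exons with the other alpha protocadherins, and MYLK (1.44), against a median distance of 7.43. All 5 were lowest in H460, which follows from choosing them by this distance. DPYSL5, for example, had 12 and 17 reads there, against 284 and 426 for H1299 and 645 and 1196 for A549. MYLK, the myosin light chain kinase, had 65 and 99, 1426 and 1554, and 5365 and 6191. None of the other members came near: the closest, TMEM30A, ranked 3085. The distance is dominated by the differences between lines, and it was computed over 6 libraries that share their lines in pairs.

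The flippase genes were set beside related lists of lipid-handling genes, which were chosen from general knowledge with earlier results of these data known. In edgeR no gene of any of these lists passed, so each count below is given at an unadjusted p under 0.05 and in DESeq2. These counts and the median log2 fold changes are to be read against the shares and medians of all genes, given above. The remaining P4-ATPases showed no common direction: of 6 genes, 3 had reads in every library, ATP10B had none in any, and 0 of the 4 tested had an unadjusted p under 0.05 or passed in DESeq2. ATP8B4 was highest in H460, with 1423 and 1399 reads against 6 and 4 in H1299, and ATP8B3 was highest in H1299, with 1296 and 1035. Neither of the other 2 subunit genes of the TMEM30A family exceeded 4 reads in a library, against at least 7679 for TMEM30A.

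ATP9A is known to act with DOP1 proteins and MON2 at endosomes. Of these 3 genes, DOP1A (0.24, 0.36, and 0.47 in H460, H1299, and A549) and MON2 (0.09, 0.50, and 0.40) were higher in each line with an unadjusted p under 0.05, and 0 passed in DESeq2. DOP1B was split, at -0.55 in H460 and 0.32 in H1299.

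The scramblases, which undo what flippases build, held the widest changes of the lists. Of 15 genes, 10 had reads in every library, and their medians were 0.15, 0.41, and 0.31. At an unadjusted p under 0.05, 3 of 13 tested were higher and 1 lower, and DESeq2 passed the same numbers. XKR8, the scramblase that caspases switch on in dying cells, had 23 and 97 reads in A549, against 168 and 275 for H460 and 705 and 1076 for H1299. In the order H460, H1299, A549 its log2 fold changes were 0.79, 0.74, and 1.90 (edgeR adjusted p = 0.173, DESeq2 0.0179). PLSCR4 was higher in H1299 (1.58) and A549 (1.19), with 0.12 in H460 (0.217 and 0.0361). TMEM41B, a scramblase of the endoplasmic reticulum singled out after its values were seen, had 0.54, 0.71, and 0.51 (0.108 and 0.000158). ANO5, of the anoctamin family, was lower in each line, with 152 and 79, 51 and 12, and 2706 and 1174 reads and log2 fold changes of -0.85, -1.86, and -1.35 (0.0819 and 5.23e-05).

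**Figure D5:**
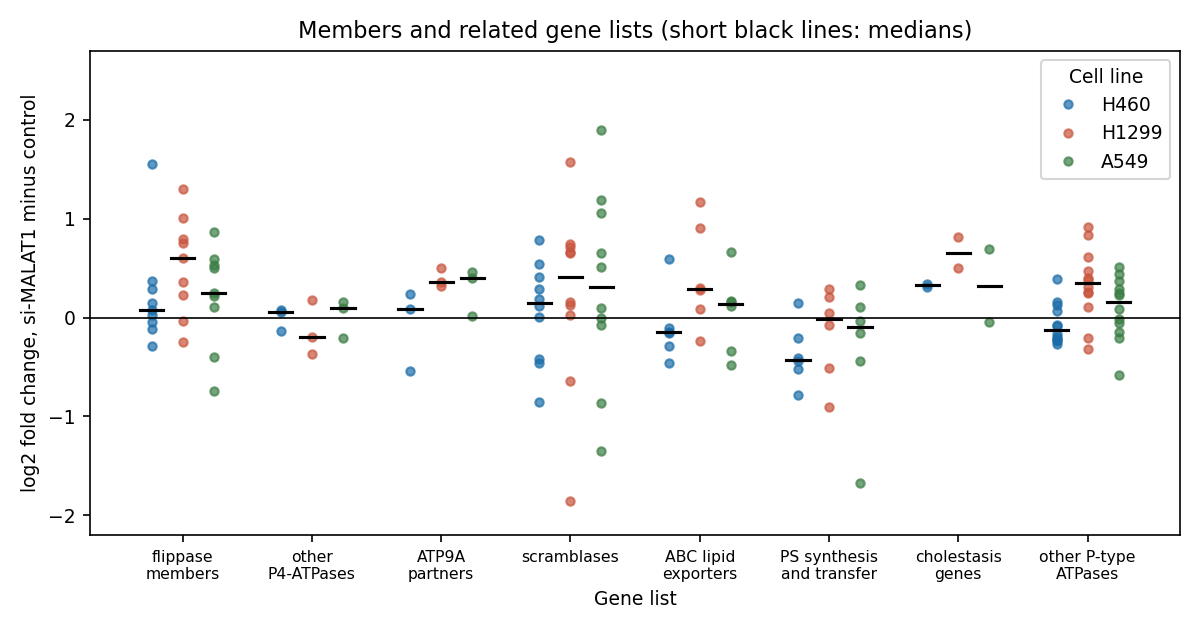
Within-line log2 fold change, si-MALAT1 minus control, of the 9 flippase members and of related gene lists (PS, phosphatidylserine), with a point for each gene that had reads in every library, coloured by cell line, and a short black line at the median. The members' medians are 0.07, 0.60, and 0.25 with ATP8B1, which was chosen on this contrast, and 0.05, 0.48, and 0.23 without it. The scramblases spread from -1.86 to 1.90.

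ABC transporters that export lipids had medians of -0.15, 0.29, and 0.14, and 1 of 7 tested was higher in DESeq2 and at an unadjusted p under 0.05. That was ABCA1, the exporter of cholesterol and phospholipid to apolipoprotein. It had 2260 and 3212 reads for H460, 7785 and 13345 for H1299, and 2650 and 4650 for A549, and log2 fold changes of 0.59, 0.91, and 0.67 (edgeR adjusted p = 0.0901, DESeq2 4.93e-06). ABCB1, the drug and lipid pump, was higher in H1299 (1.17), with intervals that included 0 in H460 (-0.15) and A549 (0.16). ABCC1 was split, at -0.46 and -0.48 in H460 and A549 against 0.30 in H1299.

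Genes of phosphatidylserine synthesis and transfer had medians of -0.42, -0.02, and -0.10. In all 3 lines, 1 was higher and 3 were lower, against 21.4% and 18.8% of all genes. Their counting intervals lay above 0 in 0 and below it in 5 of the 6 genes for H460, in 2 and 2 for H1299, and in 1 and 3 for A549. The share of all genes with such intervals was not computed. Among the 8 members other than ATP8B1 these numbers were 4 and 2, 6 and 1, and 5 and 2. Without that share, and with intervals that cover counting error only, no difference between the members and this list can be read from them. OSBPL10, a lipid transfer gene singled out after its values were seen, had values of 0.15, 0.04, and 0.33, with a counting interval above 0 for A549 alone. Of 6 tested, 2 were lower at an unadjusted p under 0.05 and in DESeq2. OSBPL8, which carries phosphatidylserine to the plasma membrane, had 8651 and 4754 reads for H460, 20812 and 10181 for H1299, and 5256 and 1818 for A549. These gave log2 fold changes of -0.78, -0.90, and -1.68 (edgeR adjusted p = 0.0948, DESeq2 6.72e-06). PTDSS1, a phosphatidylserine synthase, was lower by similar amounts in each line, at -0.41, -0.51, and -0.44 (0.134 and 0.0014). PTDSS2, the other synthase, had -0.44, -0.08, and -0.16.

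Of the 5 other genes known from inherited cholestasis, 2 had reads in every library, and the bile salt pump gene ABCB11 had at most 12 reads. MYO5B, a motor of membrane recycling, had log2 fold changes of 0.34, 0.50, and -0.05 (edgeR adjusted p = 0.489, DESeq2 0.437). Among 16 P-type ATPases that carry ions or other cargo, 2 of 14 tested were higher at an unadjusted p under 0.05, and 0 passed in DESeq2. The calcium pump ATP2B1 had 0.16, 0.84, and 0.37, ATP7A, a copper pump, had 0.13, 0.61, and 0.28, and ATP2B4 was split, at -0.19 in H460 and 0.92 in H1299.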

How the data were processed

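Read counts, FPKM, and TPM per gene were deposited for 6 libraries: H460, H1299, and A549, each without and with si-MALAT1. The authors trimmed the reads (Trimmomatic), aligned them to GRCh38 with HISAT2 2.1.0, and estimated abundances with StringTie, and the deposited counts are not normalized, while the deposited FPKM and TPM values were scaled by the authors for length and depth. The submitters' processing notes also list hg19. Of the deposited table, 18 columns of other samples were not used.

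Tests used the quasi-likelihood method of edgeR 4.0.16 with TMM, filterByExpr by group, and Benjamini-Hochberg adjustment over all genes. For si-MALAT1, the cell line was the block, since both libraries of a pair come from the same cell line, which leaves 2 residual degrees of freedom. For cell lines, the treatment was the block. Within a line, log2 of RLE-scaled counts plus 1 was compared for genes with reads in each library, with exact Clopper-Pearson intervals and no test. DESeq2 1.42.0, limma 3.58.1, other scalings and filters, a pseudocount of 10, and libraries left out were alternatives. Scripts were tested on simulated data. Analyses used R 4.3.3 and Python 3.11.15.

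The members and lists were chosen with earlier results of these data known. Named genes are the members, MALAT1, up to 3 genes of each list with the largest mean change, genes overlapping a member, neighbours within 1 Mb of ATP8B1, and the 5 nearest profiles. Some items, genes or sequences, are not reported here. Other genes named were chosen after their values were seen or are markers.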

Additional observations from a re-analysis of the deposited data

Results flagged for a closer look

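ATP11A, ATP11B, and 3 genes of the related lists went in opposite directions in different cell lines, beyond the counting interval of each line, on the scale of RLE-scaled counts. The differences between lines were not tested, since each line has a single pair of libraries. The log2 fold change of ATP11A was -0.12 in H460, 0.76 in H1299, and 0.21 in A549. That of ATP11B was 0.22 in H1299 and -0.40 in A549. DOP1B had -0.55 in H460 and 0.32 in H1299. ABCC1 had -0.46 in H460, 0.30 in H1299, and -0.48 in A549. ATP2B4 had -0.19 in H460, 0.92 in H1299, and 0.44 in A549. Among all genes with reads in every library, 6.15% had fold changes of at least 1.5 in opposite directions in a pair of lines. None of the genes above reached that. The share of all genes split by the looser rule of counting intervals was not computed, so these splits cannot be called unusual.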

How the results depend on the processing

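The number of genes passing the test of si-MALAT1, 0 higher and 1 lower, was 0 lower with no filter on low counts, with filterByExpr by the full design (chosen after seeing the data), and with no replicate block. It was 569 higher and 592 lower in DESeq2, and 1 higher and 24 lower in limma on log2(TPM + 1). With a replicate left out it ranged from 0 to 51 higher and from 0 to 112 lower, the upper ends without the H460 pair. Of the members, only ATP8B2 and TMEM30A gained a call, in DESeq2, while ATP10D (-0.18 to 0.017 with a pair left out) turned without the H460 pair and ATP11B (-0.23 to 0.075) without the A549 pair. So did DOP1B (-0.27 to 0.16) without the H460 pair and ATP8B4 (-0.011 to 0.098) without the A549 pair. Without the block no member passed, with adjusted p of 1.00 in each.

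In the contrasts of lines, leaving out a library gave 3736 genes without the A549 control and 4016 without the A549 si-MALAT1 library for A549 and H460 (7688 with all, highest 8260), and 5916 and 5955 for A549 and H1299 (10271, highest 10755). ATP9A (-0.41 to 0.27) and ATP11A (-0.35 to 0.26) turned between A549 and H460 without the H460 control, and ATP8A1 (-0.53 to 0.080) between A549 and H1299 without the A549 si-MALAT1 library. Of 17 member calls, 6 were lost under at least 1 alternative, and 3 were gained. Within lines, the members past a fold change of 1.5 upward were 0 in H460 on log2(TPM + 1) and 1 in A549 with TMM or log2(TPM + 1), and 0 downward in A549 on log2(TPM + 1). Ratios and shares from FPKM equal those from TPM by construction and are no check of them. The causes were not tested. The precision for ATP8B1 in H460 is limited by its 31 and 88 reads.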
